A study of Mus musculus with 24 samples.

Results

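The clustered protocadherins are cell-surface adhesion proteins of the cadherin superfamily whose genes stand side by side in the alpha, beta and gamma clusters. They were taken here as every row of the 2 expression tables whose symbol starts with Pcdha, Pcdhb or Pcdhg, which gave 24 of 22562 rows in each table: 21 of the beta cluster (Pcdhb1 to Pcdhb19, Pcdhb21 and Pcdhb22), 2 of the alpha cluster (Pcdha3 and Pcdha4) and 1 of the gamma cluster (Pcdhga9). No row bore the name of a C-type member of the alpha or gamma cluster, so none was analysed by name. Whether the Pcdha4 and Pcdhga9 rows hold reads of C-type members is not known here.

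A neuron uses only a few of these genes, and the choice differs from cell to cell. In the alpha and gamma clusters each variable exon has its own promoter and is spliced to constant exons shared by the whole cluster, whereas each beta gene has its own promoter and no shared constant exons. The architectural protein CTCF and the cohesin ring bring a chosen promoter to distal enhancers, and promoters that are not used carry DNA methylation. The proteins bind their own kind across membranes, and in mice the gamma proteins serve dendrite self-avoidance of Purkinje cells, whereas the alpha C-type protein spaces serotonergic axons.

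RNA was sequenced from the cerebellum and cortex of adult mice that lack the DNA repair factor APTX (aprataxin), the DNA damage-responsive kinase ATM or both, to ask how transcription differs in a brain with unrepaired DNA damage. The cerebellum was represented by 6 double mutant libraries (Atm Nes-cre; Aptx-/-), 2 Aptx mutant libraries (Aptx-/-), 2 Atm mutant libraries (Atm Nes-cre) and 4 control libraries, and the cortex by 6 double mutant and 4 control libraries. Aptx was deleted in the whole animal, and Atm was deleted by a Cre recombinase driven by the Nestin promoter, which acts in neural progenitors and their offspring, so that other cell types of the tissue keep Atm. The labels give the Atm single mutants as Atm Nes-cre, whereas the study's text calls its Atm single mutants Atm-/-, so whether their other cells keep Atm is not known here. Per the study, double mutants were adults of either sex that had developed ataxia and controls were littermates, whereas the age of the single mutants is not given in the labels. No single mutant cortex was analysed here. The study calls the controls wild type, and the sources used here do not say whether they carried Cre or floxed Atm alleles. Values are fragments per kilobase of transcript, scaled to the mapped fragments of the library (FPKM), a level per length, and a gene was called when the adjusted p of limma, a linear model fitted across all genes with Benjamini-Hochberg adjustment, was below 0.05. Fold changes are on the scale of log2(FPKM + 1), which understates changes of low genes.

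Aptx had 2.09 to 2.86 FPKM in double mutant cerebellum and 2.25 to 2.77 FPKM in Aptx mutant cerebellum, against 3.11 to 3.59 FPKM in control cerebellum, and 2.53 to 3.0 FPKM in double mutant cortex against 4.26 to 4.53 FPKM in control cortex. Atm was not lower (7.59 to 9.14 FPKM in double mutant cerebellum and 7.45 to 8.22 FPKM in Atm mutant cerebellum, against 6.75 to 7.13 FPKM in control cerebellum), and since a row sums a whole gene it does not check a deletion of part of it. The cortical excitatory neuron markers fixed for this report summed to 176 to 235 FPKM in double mutant cortex and 129 to 156 FPKM in control cortex, against 39.4 to 72.1 FPKM in cerebellum of all groups. The granule neuron markers summed to 467 to 761 FPKM in cerebellum, against 7.90 to 14.8 FPKM in double mutant cortex and 15.2 to 34.7 FPKM in control cortex. The columns of double mutants 1 to 5 in both tissues and of the 4 single mutant libraries hold values with few decimals that correspond to whole reads, with 21.5 to 39.8 (in units of 1e6) per cerebellar and 32.6 to 46.1 per cortical library. The columns of double mutant 6 and of every control hold long decimals that did not give whole reads, so they were computed in another way, and library numbers in the labels also separate the controls from all mutants. Genotype and these differences therefore cannot be told apart in any comparison with controls, except that double mutant 6 has the column type of the controls. Control cortex library 4 stood apart with a single row, Gm10654, at 322070 FPKM, and its other rows summed to 232311 FPKM.

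The beta genes lie on the plus strand of chromosome 18 (mm9, 37424652 to 37681073), a stretch of 256 kb in which GENCODE M1 annotates most of them as a single exon without introns. They are single genes with similar sequences: up to 11.99% of their words of 50 bases, and up to 2.54% of their words of 100 bases, recur elsewhere in the 952 kb around the clusters, so that some reads may have been shared between neighbours. In the columns with whole reads, a beta gene other than Pcdhb1 held 87 to 1343 reads in cerebellum and 163 to 1807 reads in cortex. The Pcdha4 row has the length of 5422 bases of the longest transcript of an annotated gene that spans the alpha cluster (37089939 to 37347311), and the Pcdhga9 row that of 5777 bases of a gene that spans the gamma cluster (37833989 to 38001527). By that match these 2 rows may hold the reads of many alpha or gamma isoforms through their shared constant exons, and they are read here as rows and not as single isoforms. Pcdha3 was annotated as a gene of its own inside the alpha cluster (37105801 to 37108685).

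In level per length, Pcdhga9 was first and Pcdha4 second in each of the 6 groups, with no overlap between their libraries. Pcdhga9 averaged 71.0 ± 7.62 FPKM in double mutant cerebellum and 64.4 ± 6.88 FPKM in control cerebellum (SD, n = 6 and 4), and 50.2 ± 3.11 FPKM in double mutant cortex and 47.5 ± 1.68 FPKM in control cortex. The beta gene with the highest mean over the 14 cerebellar libraries was Pcdhb14, and over the 10 cortical libraries Pcdhb17. Pcdhb1 was the lowest member in every group. Neighbours in the order of mean levels mostly could not be separated, since the ranges of 19 of 23 neighbouring pairs overlapped in control cerebellum and of 19 of 23 in control cortex.

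**Figure D1:**
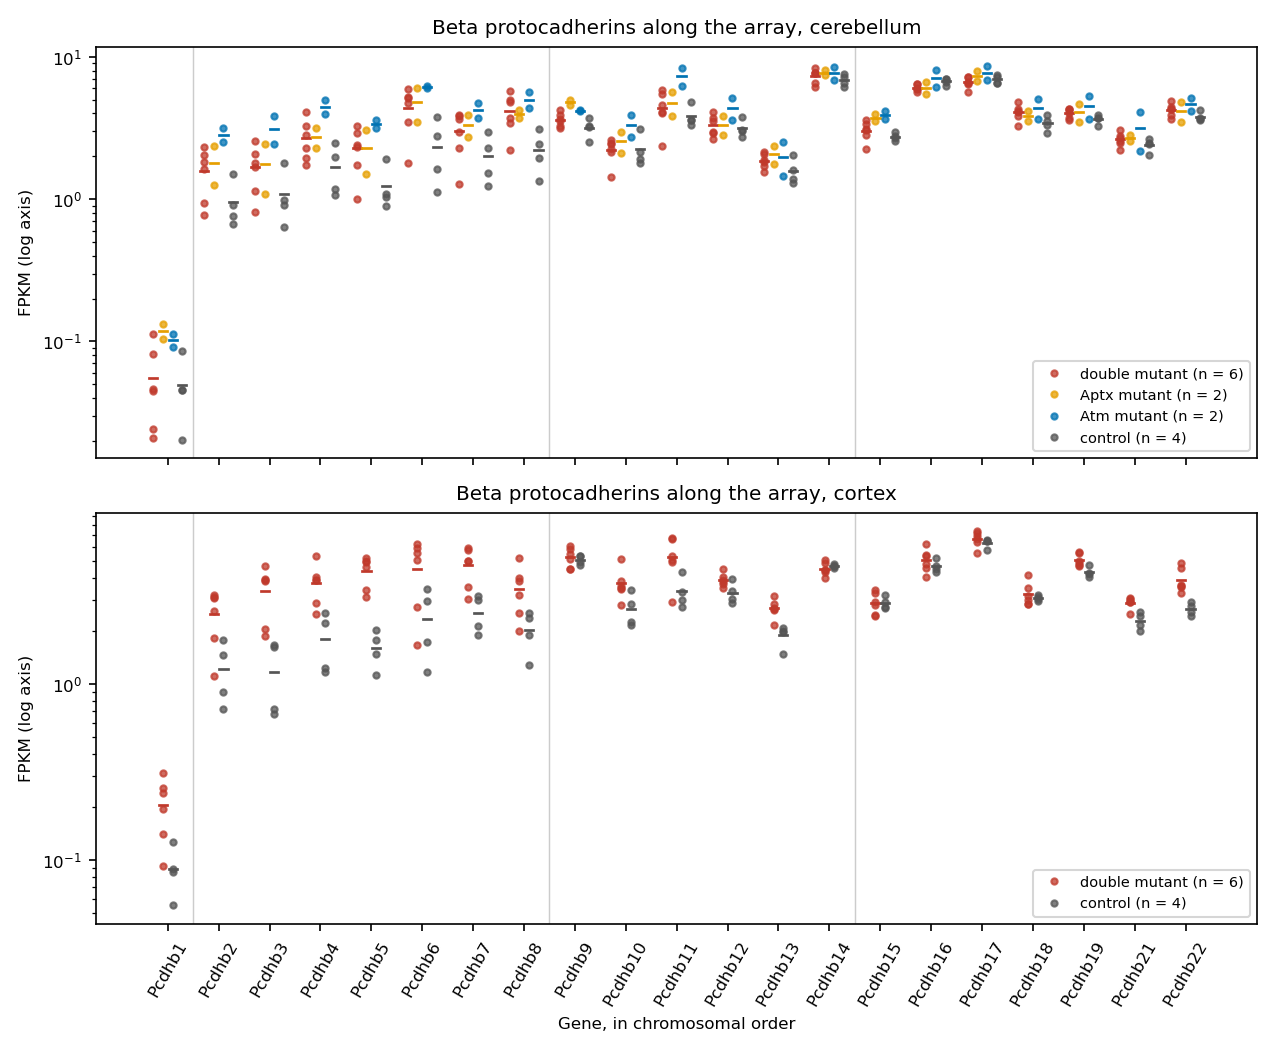
FPKM on a log axis of the 21 beta protocadherins in chromosomal order, in cerebellum (upper panel) and cortex (lower panel). Each point is a library, short bars are group means, and grey lines mark the 3 largest gaps between gene starts; from Pcdhb2 to Pcdhb8 the mutant means lie above the control means in both tissues, and from Pcdhb15 to Pcdhb19 the groups largely overlap.

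In the cortex, 13 of the 23 tested members were higher in double mutants and none was lower, against 24.3% of all 12815 genes tested that were higher. Of the 13, 12 were beta genes and 1 was Pcdha4. The median log2 fold change of the 20 tested beta genes was 0.36, that of all genes was 0.029, and 18 of the 20 had a positive value. In 5 of the 23 members every double mutant library was above every control library, against 17.7% of all genes.

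Pcdhb5 (chr18:37480035-37483567), the member with the smallest p, had 3.10 to 5.16 FPKM in double mutant cortex with a median of 4.74 FPKM, against 1.12, 2.02, 1.77 and 1.48 FPKM in controls 1 to 4. Its groups did not overlap, and the lowest double mutant was library 6. The ratio of the means was 2.73 and the log2 fold change was 1.04 ± 0.13 (SE; limma adjusted p = 7.93e-05, n = 6 and 4). Pcdhb3 (chr18:37460453-37464239) had 1.86 to 4.68 FPKM with a median of 3.88 FPKM in double mutant cortex, against 0.717, 1.65, 1.61 and 0.677 FPKM in the controls. Here too the groups did not overlap, but double mutants 1 and 6, at 2.04 and 1.86 FPKM, lay close to controls 2 and 3. Its log2 fold change was 1.0 ± 0.21 (limma adjusted p = 0.00233), and Pcdhb3 and Pcdhb5 were the only members past a log2 fold change of 1 in this comparison.

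Pcdhb2, Pcdhb4, Pcdhb7 and Pcdhb8, which lie next to these genes, were higher with log2 fold changes of 0.54 to 0.78. Pcdhb6, between them, had a log2 fold change of 0.70 ± 0.28 and missed the threshold (limma adjusted p = 0.0639), with 1.66 FPKM in double mutant 6 and 1.17 FPKM in control 1 at the low ends. The called genes further along the array were Pcdhb10, Pcdhb11, Pcdhb13, Pcdhb19, Pcdhb21 and Pcdhb22, with log2 fold changes of 0.19 to 0.50. Of these Pcdhb13 had 2.17 to 3.17 FPKM in double mutant cortex and 1.48 to 2.08 FPKM in control cortex, and Pcdhb22 had 3.27 to 4.83 FPKM in double mutant cortex and 2.41 to 2.93 FPKM in control cortex, in both cases without overlap. Pcdhb17, the most abundant beta gene of the cortex, had 5.57 to 7.35 FPKM with a median of 6.81 FPKM in double mutants, against 5.73, 6.51, 6.47 and 6.60 FPKM in controls, and was not called (log2 fold change 0.066 ± 0.068, limma adjusted p = 0.47).

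Leaving out control cortex 1 or control cortex 4 lowered the count of called members to 8 in each case, and 8 of the 13 calls, those of Pcdhb3, Pcdhb4, Pcdhb5, Pcdhb7, Pcdhb13, Pcdhb21, Pcdhb22 and Pcdha4, held whichever of the 10 libraries was left out. The shares of all genes called in these fits are not given here. Comparing only columns with long decimals set double mutant 6 alone against the 4 controls, so effect sizes are given without calls. In that fit Pcdhb5 had a log2 fold change of 0.67, and 14 of 20 beta values were positive. The median over Pcdhb2 to Pcdhb8 was 0.245, against 0.70 with all libraries. Double mutant 6 was above all 4 controls in 8 of 20 beta genes, a count for which no share of all genes was taken.

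In the cerebellum 2 of the 23 tested members were higher in double mutants and none was lower, against 22.3% of all 13277 genes tested that were higher. At an unadjusted p below 0.05 there were 4 members, and the share of all genes at that cut was not taken. In no member was every double mutant above every control, against 15.5% of all genes. The median log2 fold change of the 20 beta genes was 0.14, against 0.06 for all genes.

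Pcdhb8 (chr18:37514726-37517264) had 2.21 to 5.77 FPKM with a median of 4.27 FPKM in double mutant cerebellum, against 1.35, 2.45, 3.11 and 1.95 FPKM in controls 1 to 4. All double mutants except library 6 were above every control. Its log2 fold change was 0.67 ± 0.19 (limma adjusted p = 0.0146), and the call was lost when control 1 was left out. Pcdhb6 (chr18:37493682-37497087) had 1.79 to 5.98 FPKM with a median of 4.92 FPKM in double mutants, against 1.12, 2.79, 3.77 and 1.64 FPKM in controls, so that the groups overlapped. Its log2 fold change was 0.70 ± 0.26 (limma adjusted p = 0.0476), and this call was lost in 9 of the 14 fits that left out a library and under 5 other settings of the fit. Under a further setting, only columns with long decimals, the log2 fold change of Pcdhb6 turned to -0.18. Pcdhb14, the most abundant beta gene of the cerebellum, had 6.15 to 8.38 FPKM with a median of 7.67 FPKM in double mutants, against 6.16, 6.54, 7.23 and 7.58 FPKM in controls, and was not called (log2 fold change 0.084 ± 0.085, limma adjusted p = 0.476).

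The count of called members changed when single libraries were left out. No share of all genes called in those fits is given here, so the changes are not read as particular to these genes. Without double mutant 6 the count was 5, with Pcdhb2, Pcdhb5 and Pcdhb7 added, without control 3 it was 4, with Pcdhb4 and Pcdhb5 added, and without control 1 it was 0. It was 1, with Pcdhb6 lost, without any of double mutants 2 to 5, either Atm mutant or control 4. Double mutant 6 was above all 4 controls in 3 of 20 beta genes and in none of the 7 genes from Pcdhb2 to Pcdhb8, whereas double mutants 4 and 5 were above them in all 7. No share of all genes was taken for these counts. Among columns with long decimals alone, with 1 double mutant library, Pcdhb6 had a log2 fold change of -0.18 and Pcdhb8 of 0.030. The median over Pcdhb2 to Pcdhb8 was -0.133 there, against 0.465 with all libraries.

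The genes with the larger differences lay together. The 3 largest gaps between consecutive gene starts, of 45.8, 29.8 and 25.9 kb, part the array after Pcdhb8, Pcdhb1 and Pcdhb14, and these gaps were used after the values had been seen to describe it in stretches, without a test. The 7 genes from Pcdhb2 to Pcdhb8 start 29.8 to 90.1 kb from the start of Pcdhb1, the 6 from Pcdhb9 to Pcdhb14 136 to 183 kb, and the 7 from Pcdhb15 to Pcdhb22 209 to 253 kb. In the cortex the log2 fold changes of double mutants against controls ran from 0.54 to 1.04 in the first of these stretches, from -0.04 to 0.50 in the next and from -0.0026 to 0.41 in the last. In the cerebellum they ran from 0.36 to 0.70, from -0.01 to 0.15 and from -0.12 to 0.20 in the same order. Across the 20 genes, which share libraries and are not independent replicates, Pearson's r between the log2 fold change and the distance from Pcdhb1 was -0.81 in cortex and -0.76 in cerebellum, and the rank correlation was -0.695 and -0.66. With the share of recurring words of 50 bases the rank correlation was 0.14 in cortex and 0.13 in cerebellum, and with the mean level it was -0.43 and -0.39. Among columns with long decimals alone, r with distance was -0.19 in cortex and 0.26 in cerebellum.

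**Figure D2:**
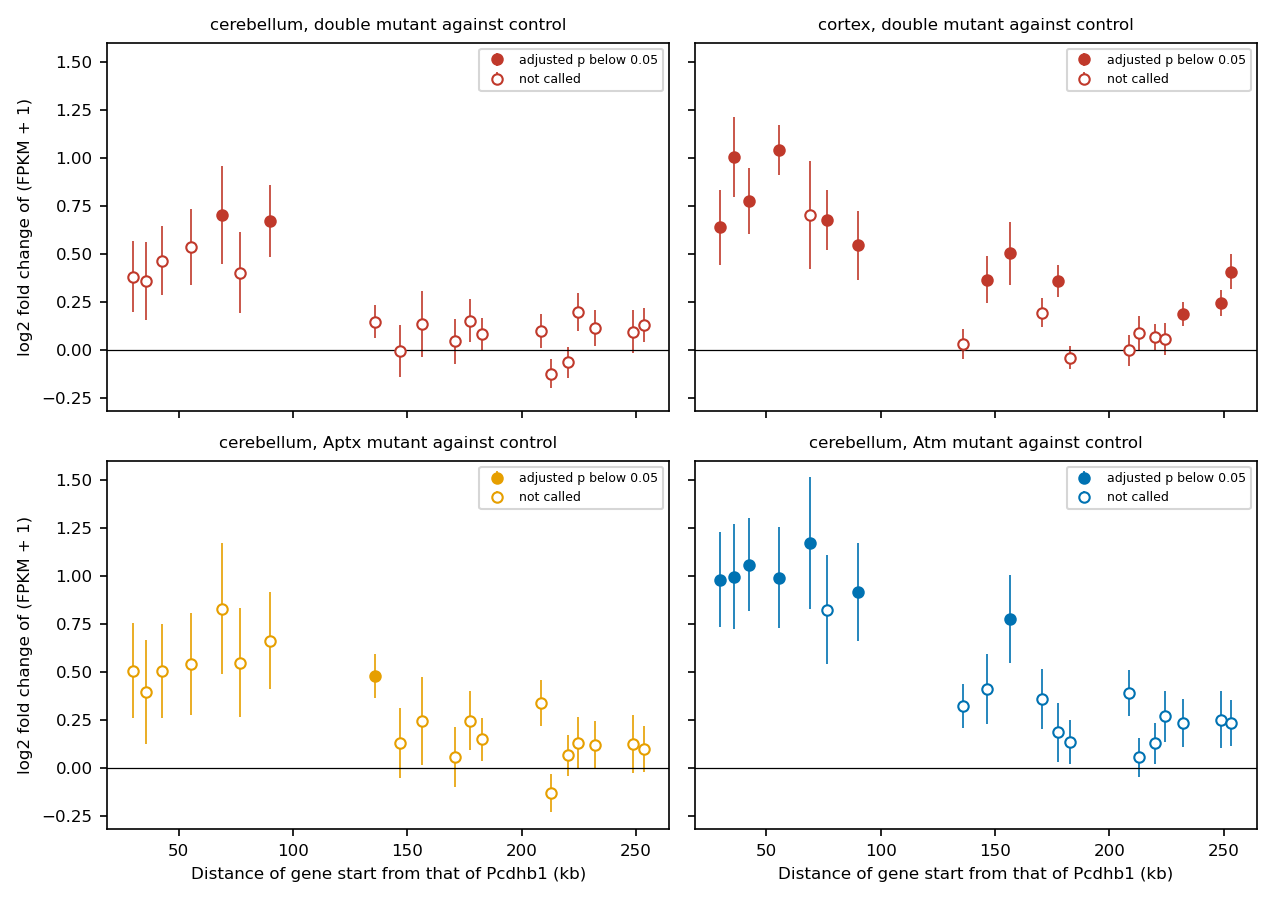
Log2 fold change of (FPKM + 1) against controls of the 20 tested beta protocadherins by distance of the gene start from that of Pcdhb1 in kb, for double mutants in cerebellum and cortex and for Aptx and Atm mutants in cerebellum. Bars are standard errors and filled points passed limma's adjusted p of 0.05; the 7 genes under 100 kb reach 1.04 for double mutants in cortex and 1.17 for Atm mutants in cerebellum, and in Aptx mutants Pcdhb9, at 136 kb and 0.48, is the only gene called and lies within the range of those 7. The 3 cerebellar panels share the same 4 controls.

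Summed over Pcdhb2 to Pcdhb8, double mutant cortex had 26.7 ± 7.74 FPKM and control cortex 12.6 ± 4.23 FPKM (SD, n = 6 and 4), a ratio of 2.11. Over Pcdhb15 to Pcdhb22 the sums were 29.7 ± 3.17 FPKM in double mutant cortex and 26.2 ± 1.38 FPKM in control cortex, a ratio of 1.13. In cerebellum the sums over Pcdhb2 to Pcdhb8 were 19.8 ± 6.45 FPKM in double mutants and 11.5 ± 4.50 FPKM in controls, and over Pcdhb15 to Pcdhb22 30.7 ± 2.54 and 29.7 ± 1.11 FPKM in the same order. Over Pcdhb9 to Pcdhb14 the ratio was 1.21 in cortex and 1.09 in cerebellum, so that the largest ratio was that of the genes near Pcdhb1 in both tissues.

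Among the 20 tested beta genes, the spread between libraries of a group was widest, by the median, in these genes. The median coefficient of variation over Pcdhb2 to Pcdhb8 was 34.7% in double mutant and 39.2% in control cerebellum, and 32.9% in double mutant and 38.8% in control cortex. Over Pcdhb9 to Pcdhb14 it was 14.2, 16.4, 12.5 and 14.1% in the same 4 groups, and over Pcdhb15 to Pcdhb22 it was 10.3, 7.54, 14.1 and 8.02%. All 7 genes from Pcdhb2 to Pcdhb8 exceeded the median of genes of like mean level in each of these groups, as did 4, 6, 4 and 4 of the 6 from Pcdhb9 to Pcdhb14 and 2, 0, 5 and 1 of the 7 from Pcdhb15 to Pcdhb22. Single genes crossed this order, since the values over Pcdhb9 to Pcdhb14 in double mutant cortex reached 26.3% and those over Pcdhb2 to Pcdhb8 started at 20.2%.

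Within double mutants and within controls, the lowest libraries bore the same replicate numbers in both tissues. By the sum over Pcdhb2 to Pcdhb8, double mutants 6 and 1 were lowest, with 9.85 and 15.1 FPKM in cerebellum and 15.8 and 18.4 FPKM in cortex, and double mutant 4 was highest in both, with 27.8 FPKM in cerebellum and 35.4 FPKM in cortex. Controls 1 and 4 were lowest, with 7.48 and 8.73 FPKM in cerebellum and 8.31 and 9.80 FPKM in cortex, and controls 2 and 3 had 12.2 and 17.5 FPKM in cerebellum and 16.9 and 15.6 FPKM in cortex. The labels give a double mutant's cerebellum and cortex the same library number. Of these libraries, double mutant 6 and all controls have columns with long decimals, and double mutants 1 and 4 do not. The part of the column type in these sums was not tested.

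**Figure D3:**
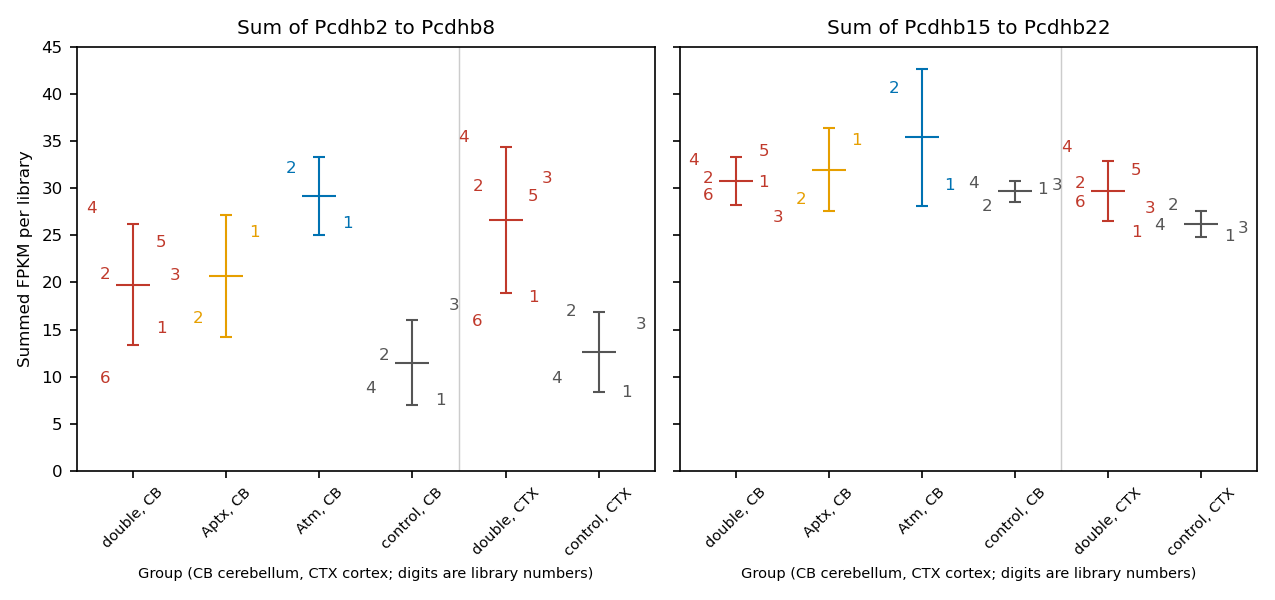
Summed FPKM per library of the 7 genes from Pcdhb2 to Pcdhb8 (left) and of the 7 from Pcdhb15 to Pcdhb22 (right), by group, with cerebellum left of cortex. Digits are replicate numbers within a group, horizontal bars are means and vertical bars are SD. In the left panel double mutants 6 and 1 are the lowest of the double mutants, and controls 1 and 4 the lowest of the controls, in both tissues. The sums of the right panel run from 24.9 to 40.6 FPKM.

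Pcdhb1, the first gene of the array, did not pass the filter on low values in either tissue and had no value from limma. It had 0.0927 to 0.312 FPKM in double mutant cortex with a median of 0.217 FPKM, against 0.0553, 0.127, 0.0855 and 0.0888 FPKM in controls. The 6 double mutants overlapped the 4 controls through library 6, and the means differed by 0.117 FPKM (exact permutation test, two-sided, p = 0.0190, and 0.0381 after adjustment over both tissues). In cerebellum the means were 0.0550 FPKM in double mutants and 0.0492 FPKM in controls (exact permutation test, two-sided, p = 0.762). These levels rested on 12 to 27 reads in the cortical libraries and on 2 to 10 reads in the cerebellar libraries with whole reads.

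Markers of other cell types differed between the same cortical groups, in which 24.3% of all genes were higher and 14.5% lower in double mutants. They also differed between the cerebellar groups, in which 22.3% were higher and 10.1% lower. The 6 cortical excitatory neuron markers had 5 higher and 1 lower in double mutants with sums of 176 to 235 FPKM, against 129 to 156 FPKM in controls, and 5 of 6 oligodendrocyte markers were lower with sums of 451 to 733 FPKM in double mutants, against 856 to 976 FPKM in controls. Of 3 granule neuron markers tested in cortex, 1 was higher and 2 lower in double mutants. The 6 granule markers summed to 7.90 to 14.8 FPKM in double mutant cortex, against 15.2 to 34.7 FPKM in control cortex. None of these markers was at 0 in a group, and their part in the protocadherin differences was not tested. In cerebellum, 4 of 6 granule neuron markers were higher with sums of 626 to 722 FPKM in double mutants, against 467 to 573 FPKM in controls, and 3 of 6 astrocyte markers were higher with sums of 455 to 515 FPKM in double mutants, against 329 to 377 FPKM in controls. Purkinje cell markers, with 2 higher and 2 lower of 6, summed to 749.7 to 855 FPKM in double mutants, against 992 to 1137.5 FPKM in controls. Serotonergic neuron markers were lower, 4 of 4 tested in cerebellum with sums of 4.83 to 6.91 FPKM in double mutants, against 8.75 to 20.3 FPKM in controls, and 2 of 2 tested in cortex with sums of 5.32 to 6.15 FPKM in double mutants, against 10.5 to 12.7 FPKM in controls. Of 5 choroid plexus markers, 3 were lower and none higher in cortex, and 1 was higher and none lower in cerebellum. Their cerebellar sums ran from 113 to 1170 FPKM in double mutants, against 15.6 to 771 FPKM in controls. The part of these lists was not tested either. In bulk tissue, more cells of a type and more RNA per cell cannot be told apart.

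The single mutants were compared with controls in cerebellum only. All comparisons with controls in this tissue share the 4 control libraries, so their values are not independent of each other. In Atm mutants 7 of the 23 tested members were higher and none was lower, against 6.78% of all genes that were higher. All 7 were beta genes, namely Pcdhb2, Pcdhb3, Pcdhb4, Pcdhb5, Pcdhb6, Pcdhb8 and Pcdhb11. The median log2 fold change of the 20 beta genes was 0.38, against 0.05 for all genes, and all 20 values were positive. In 10 of the 23 members both Atm mutants were above all controls, against 23.9% of all genes.

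Pcdhb4 (chr18:37467109-37470827) had 4.0 and 4.94 FPKM in the Atm mutants, against 1.06, 1.98, 2.47 and 1.19 FPKM in controls 1 to 4. Its log2 fold change was 1.06 ± 0.24 (limma adjusted p = 0.0153, n = 2 and 4). Pcdhb2 (chr18:37454494-37457267) had 2.53 and 3.15 FPKM in the Atm mutants, against 0.916, 0.664, 1.5 and 0.762 FPKM in controls, with a log2 fold change of 0.98 ± 0.25 (limma adjusted p = 0.0233). For Pcdhb2 the 2 Atm mutants were the highest of the 14 cerebellar libraries, and for Pcdhb4 double mutant 4, at 4.09 FPKM, lay between them. The count rested on 2 mutant libraries. A fit without either leaves a lone library in the group and cannot tell whether a call is stable. The count was 2 without control 1 or control 4, and no share of all genes called in those fits is given here.

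In Aptx mutants 1 of the 23 tested members was higher and none was lower, against 10.4% of all genes that were higher. An unadjusted p below 0.05 was reached by 5 members, without a share of all genes at that cut. The called member was Pcdhb9 (chr18:37560509-37563563), with 4.62 and 4.97 FPKM in Aptx mutants, against 3.21, 2.53, 3.29 and 3.69 FPKM in controls, and with a log2 fold change of 0.48 ± 0.12 (limma adjusted p = 0.0141). The call rested on 2 mutant libraries, and a fit without either leaves a lone library in the group and cannot tell whether it is stable. The count was 2 without double mutant 3, 4 or 6, and no share of all genes called in those fits is given here. The 7 genes from Pcdhb2 to Pcdhb8 had log2 fold changes of 0.40 to 0.83 and none was called. The 2 mutants differed, since Aptx mutant 1 was above all controls in each of the 7 and Aptx mutant 2 in 1 of them. The like share of all genes was not taken for either library. In 4 of the 23 members both Aptx mutants were above all controls, against 28.1% of all genes.

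Double mutants did not differ from single mutants past the threshold in any member. Against the mean of both single mutants, limma called 0 of 23 members, against 1.98% of all genes in either direction, and 4 members had an unadjusted p below 0.05, each lower in double mutants. All 20 beta values were negative (-0.37 to -0.0023). Against Aptx mutants 0 of 23 were called, against 0.143% of all genes, and 3 had an unadjusted p below 0.05. Against Atm mutants 0 of 23 were called, against 2.24% of all genes, and 8 had an unadjusted p below 0.05. The shares of all genes given here are for adjusted p, and none was taken for the unadjusted counts or the signs. For the genes from Pcdhb2 to Pcdhb8 the log2 fold changes of double mutants were -0.15 to 0.01 against Aptx mutants and -0.64 to -0.25 against Atm mutants. With 2 libraries in each single mutant group, standard errors of the beta genes reached 0.32.

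The 2 alpha rows and the gamma row differed less. Pcdha4 had 25.7 to 27.8 FPKM with a median of 27.1 FPKM in double mutant cortex, against 22.8, 25.5, 23.4 and 23.4 FPKM in controls. The groups did not overlap, and the log2 fold change was 0.17 ± 0.04 (limma adjusted p = 0.00626). Under quantile normalization it was 0.088 with limma's adjusted p at 0.0998. In cerebellum Pcdha4 had 18.4 to 21.2 FPKM with a median of 19.8 FPKM in double mutants, 22.6 and 23.7 FPKM in Aptx mutants and 23.2 and 21.4 FPKM in Atm mutants, against 18.4, 21.8, 21.3 and 20.2 FPKM in controls. None of these cerebellar differences was called, with a log2 fold change of -0.041 ± 0.055 for double mutants (limma adjusted p = 0.601).

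Pcdha3 had 2.16 to 3.34 FPKM with a median of 2.58 FPKM in double mutant cerebellum, against 2.76, 2.88, 2.75 and 3.11 FPKM in controls, and was not called (log2 fold change -0.10 ± 0.09, limma adjusted p = 0.432). In the cortex it had 1.58 to 2.09 FPKM in double mutants, against 1.36 to 1.97 FPKM in controls, and was not called. Pcdhga9 had 59.2 to 79.7 FPKM with a median of 70.6 FPKM in double mutant cerebellum, against 60.3, 74.7, 62.0 and 60.6 FPKM in controls (log2 fold change 0.14 ± 0.08, limma adjusted p = 0.218). In the cortex Pcdhga9 had 47.4 to 54.6 FPKM with a median of 48.8 FPKM in double mutants, against 49.2, 48.3, 47.2 and 45.3 FPKM in controls. Its log2 fold change there was 0.076 ± 0.048 (limma adjusted p = 0.227) and turned to -0.047 under quantile normalization.

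**Figure D4:**
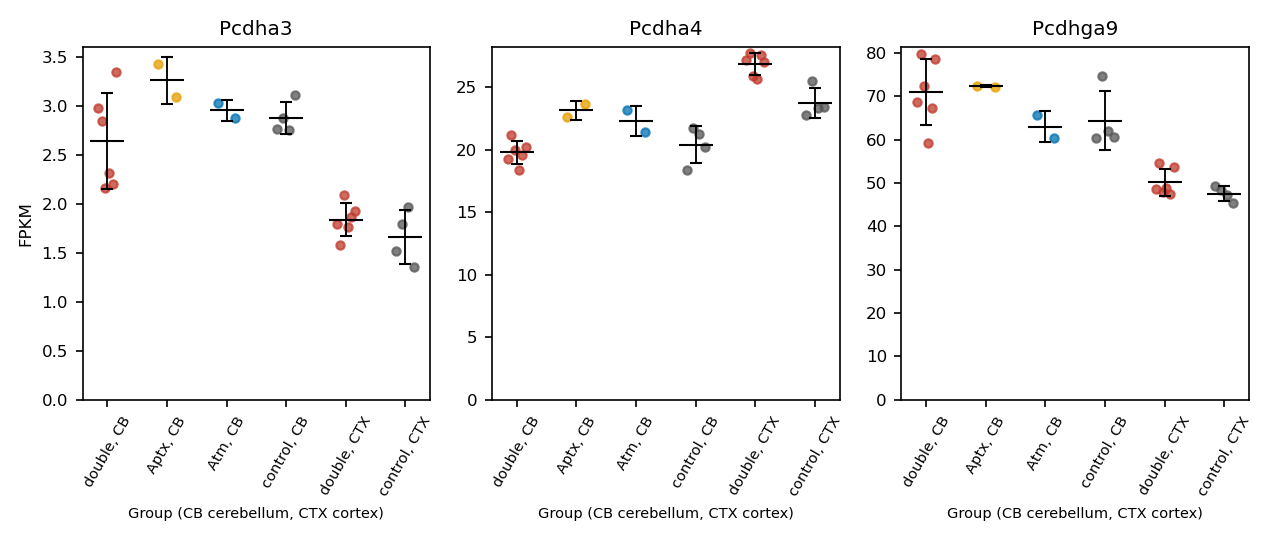
FPKM of Pcdha3, Pcdha4 and Pcdhga9 by group, with cerebellum (CB) left of cortex (CTX). Points are libraries, horizontal bars are means and vertical bars are SD. Within double mutants and within controls, Pcdha4 is higher in cortex than in cerebellum, and Pcdhga9 and Pcdha3 are higher in cerebellum than in cortex. Pcdha4 is also higher in double mutant than in control cortex, and its single mutant cerebellar libraries overlap control cortex.

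Between tissues the members differed in both directions. In double mutants 5 of 23 members were higher in cerebellum, against 45.5% of all 12322 genes tested, and 10 were lower in cerebellum, against 30.5% of all genes. In controls 5 of 23 were higher in cerebellum, against 37.3% of all genes, and 3 were lower, against 27.9% of all genes. The median of all genes in these contrasts was 0.11 in double mutants and 0.06 in controls. Cerebellum and cortex of an equal replicate number, which in double mutants also share a library number, deviated together from their group means. With that pairing as a block, 5 members were higher and 12 lower in cerebellum of double mutants, against 46.8% and 31.4% of all genes, and 6 were higher and 4 lower in cerebellum of controls, against 38.9% and 29.2% of all genes, with Pcdhb4 and Pcdhb11 added as lower in cerebellum of double mutants, and Pcdhb7 as lower and Pcdhb11 as higher in cerebellum of controls.

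Pcdhga9 was higher in cerebellum with log2 fold changes of 0.49 ± 0.07 in double mutants and 0.43 ± 0.08 in controls (limma adjusted p = 8.07e-07 and 8.94e-05). Pcdha3 was also higher in cerebellum, with 2.16 to 3.34 FPKM against 1.58 to 2.09 FPKM in cortex of double mutants and 2.75 to 3.11 FPKM against 1.36 to 1.97 FPKM in cortex of controls, without overlap. Pcdha4 was lower in cerebellum, with log2 fold changes of -0.42 ± 0.04 in double mutants and -0.21 ± 0.05 in controls (limma adjusted p = 1.35e-08 and 0.00155).

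Among the beta genes, Pcdhb14 was the one with the smallest adjusted p in each genotype. It had 6.15 to 8.38 FPKM in cerebellum and 3.97 to 5.06 FPKM in cortex of double mutants, and 6.16 to 7.58 FPKM in cerebellum and 4.54 to 4.79 FPKM in cortex of controls. Its log2 fold changes were 0.60 ± 0.07 in double mutants and 0.47 ± 0.08 in controls (limma adjusted p = 3.97e-08 and 2.82e-05). Pcdhb16, also higher in cerebellum, had log2 fold changes of 0.23 ± 0.07 in double mutants and 0.45 ± 0.08 in controls, and its call in double mutants was lost under quantile normalization and under rescaling to the median (limma adjusted p = 0.127 and 0.0753). Pcdhb9 was lower in cerebellum, with 3.14 to 4.23 FPKM in cerebellum against 4.48 to 6.05 FPKM in cortex of double mutants and 2.53 to 3.69 FPKM in cerebellum against 4.75 to 5.34 FPKM in cortex of controls. Pcdhb19 was lower in cerebellum as well (log2 fold change -0.27 ± 0.06 in double mutants and -0.19 ± 0.07 in controls). Pcdhb5 was lower in cerebellum of double mutants, with 1.0 to 3.27 FPKM in cerebellum against 3.10 to 5.16 FPKM in cortex and a log2 fold change of -0.73 ± 0.16 (limma adjusted p = 0.000261). In controls it had 0.892 to 1.90 FPKM in cerebellum against 1.12 to 2.02 FPKM in cortex, and was not called.

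**Figure D5:**
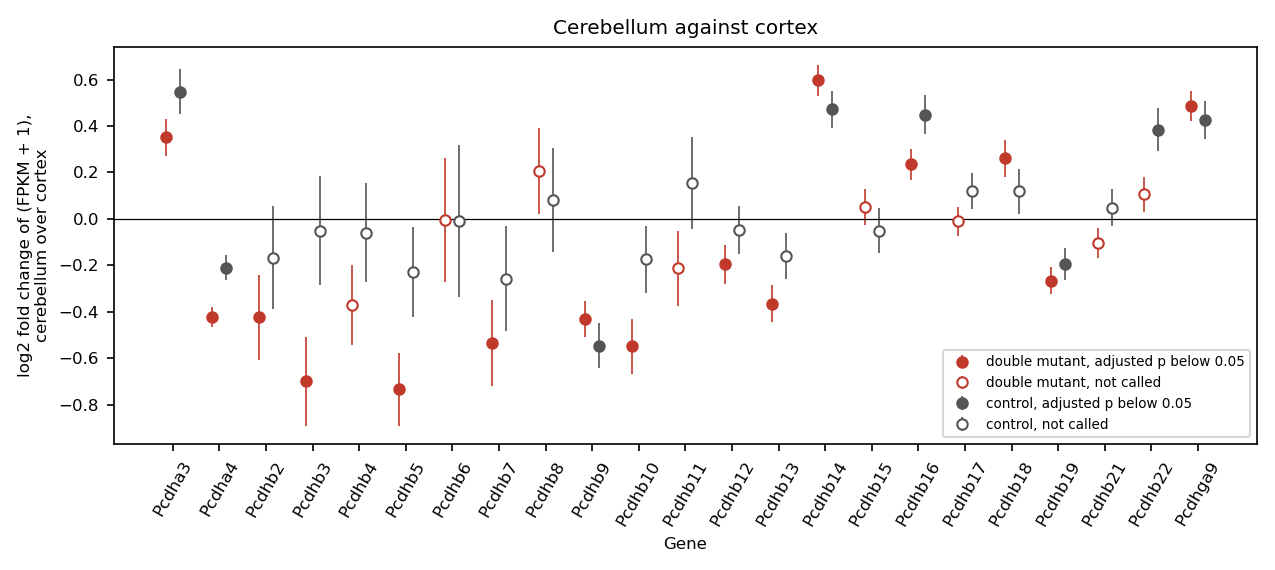
Log2 fold change of (FPKM + 1), cerebellum over cortex, for the 23 tested members in double mutants and controls. Bars are standard errors and filled points passed limma's adjusted p of 0.05; Pcdha3, Pcdhb14, Pcdhb16 and Pcdhga9 lie above 0 and Pcdha4, Pcdhb9 and Pcdhb19 below 0 in both genotypes, and Pcdhb3 and Pcdhb5 are at -0.70 and -0.73 in double mutants.

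The difference between double mutants and controls was compared between tissues by an interaction term. In the fit without pairing 1 of 23 members was called, against 11.7% of all genes called in this direction: the effect on Pcdha4 was 0.21 ± 0.07 log2 units lower in cerebellum than in cortex (limma adjusted p = 0.0275). This call was lost without control cerebellum 2 or 3 or control cortex 1 or 3, and without double mutant cortex 1 the count was 2. With the replicate number within each genotype as a block, 7 members were called, against 14.1% of all genes called in this direction, all with a smaller value in cerebellum, namely Pcdha4, Pcdhb3, Pcdhb4, Pcdhb5, Pcdhb10, Pcdhb11 and Pcdhb22. In that fit the value for Pcdhb3 was -0.65 ± 0.12 and that for Pcdhb5 -0.51 ± 0.13 (limma adjusted p = 0.00181 and 0.0108), against standard errors of 0.30 and 0.25 without the block.

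Other gene groups around the clustered protocadherins were counted for comparison. Of the 12 non-clustered protocadherins, which are not part of the alpha, beta or gamma clusters, 10 were tested in cerebellum. There 4 were lower and none higher in double mutants, against 10.1% of all genes lower and 22.3% higher (median log2 fold change -0.22, against 0.056 for all genes): Pcdh7 (-0.74 ± 0.13), Pcdh11x (-0.67 ± 0.13), Pcdh8 (-0.67 ± 0.14) and Pcdh19 (-0.56 ± 0.13). In the cortex 2 of 11 were higher and 2 lower, against 24.3% of all genes higher and 14.5% lower (median 0.044, against 0.029 for all genes), with Pcdh7 and Pcdh20 higher at 0.17 ± 0.05 each, and Pcdh15 (-0.32 ± 0.07) and Pcdh17 (-0.26 ± 0.06) lower. Read against the same shares, 3 of 17 classical cadherins were higher and 3 lower in cerebellum (median 0.056), and 6 of 16 were higher and 3 lower in cortex (median 0.098), among them Cdh22 at 0.52 ± 0.07 in cortex.

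Of the factors that act on the clusters, 10 of 20 were higher and 1 lower in double mutant cerebellum, against 22.3% and 10.1% of all genes (median 0.18, against 0.056 for all genes). These included the cohesin subunits Smc3 (0.43 ± 0.05), Smc1a (0.41 ± 0.05) and Rad21 (0.24 ± 0.05) and Ctcf (0.32 ± 0.05), whereas the lower one was Dnmt3a (-0.32 ± 0.08), a de novo DNA methyltransferase. In the cortex 3 of 19 were higher and 6 lower, against 24.3% and 14.5% of all genes (median -0.044, against 0.029 for all genes). There Smc1a (0.32 ± 0.05) and the maintenance methyltransferase Dnmt1 (0.31 ± 0.05) were higher, Dnmt3a (-0.34 ± 0.05) and the cohesin regulator Pds5b (-0.26 ± 0.05) were lower, and Ctcf (0.12 ± 0.05) was not called (limma adjusted p = 0.0835).

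Of 22 genes listed for this report around the binding and cleavage of protocadherins, 11 were higher and 3 lower in cerebellum, against 22.3% and 10.1% of all genes (median 0.14, against 0.056 for all genes). In cortex 11 of 21 were higher and 1 lower, against 24.3% and 14.5% of all genes (median 0.15, against 0.029 for all genes). On that list Marcks, a membrane-bound actin regulator, was at 1.0 ± 0.09 in cerebellum and 0.38 ± 0.05 in cortex. Whether Marcks itself binds protocadherins was not assessed. Read against the same shares, the genes that flank the clusters had 2 of 15 higher and 2 lower in cerebellum (median -0.053) and 3 of 14 higher and 3 lower in cortex (median -0.0060). Taf7, an intronless gene that lies between the beta and gamma clusters, had a log2 fold change of 0.36 ± 0.09 in cerebellum (limma adjusted p = 0.0074) and 0.024 ± 0.069 in cortex.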

How the data were processed

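Total RNA was sequenced as stranded libraries. Per the labels, the authors aligned reads with BWA 0.5.10 to mm9 and counted genes with HTSeq (version not given), and the deposited tables hold FPKM per gene. In 14 of the 24 columns each beta value was a whole number of reads times a constant over the length of the longest GENCODE M1 transcript, within 1.24e-05 of a read (tolerance 0.01). How the columns of double mutant 6 and the controls were computed is not given in the sources used here. Positions are GENCODE M1 on the same build.

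FPKM were tested as log2(FPKM + 1) with limma 3.58.1 in R 4.3.3, after the study's own choice of limma, with an intensity trend, for genes with at least 1 FPKM in at least 2 of 14 cerebellar or 4 of 10 cortical libraries, both for tissue contrasts. All groups of a tissue, or the 4 double mutant and control groups of both tissues, entered a fit. The fits were tested on simulated data. Exact permutation tests used SciPy. Labels do not name animals, so p-values measure the spread between libraries, and precision in the long-decimal columns is unknown because their depth is.

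Equal replicate numbers in the labels paired cerebellum and cortex (double mutants of a number also share a library number, controls do not): deviations from group means correlated at 0.23 to 0.50 in the 6 double mutant pairs and 0.13 to 0.31 in the 4 control pairs. Double mutant and control replicate numbers did not pair.

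Members and lists were chosen with earlier results of these data known. No share of all genes was taken for counts at an unadjusted p, by sign or of single libraries above all controls. Members share libraries, so such counts are not counts of independent genes. Values per library are given for the member with the highest mean in each cluster and tissue, up to 2 members per cluster and direction with the smallest p among those called (where none was called in double mutants against controls, the smallest p), and up to 4 genes of other lists, also by p. Other genes were named after their values were seen.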

Additional observations from a re-analysis of the deposited data

Results flagged for a closer look

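In groups of 4 to 6 libraries a lone library stood apart by Dixon's ratio in 4 of 96 sets of values, and chance gives about 1 in 20. Pcdhb22 had 4.21 FPKM in control cerebellum 1, above the other 3 controls, of which the nearest had 3.69 FPKM. Pcdhga9 had 74.7 FPKM in control cerebellum 2, where the next control had 62.0 FPKM. Pcdhb17 had 5.73 FPKM in control cortex 1, where the next higher control had 6.47 FPKM. Pcdhb21 had 2.48 FPKM in double mutant cortex 1, where the next higher double mutant had 2.91 FPKM.

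The double mutant effect on Pcdha4 differed between tissues by the interaction term of limma, at -0.21 on the log2 scale for cerebellum minus cortex, with the sign of the mean difference turning between the tissues (-0.041 in cerebellum and 0.17 in cortex). The call was lost without control cerebellum 2, control cerebellum 3, control cortex 1 or control cortex 3. This fit leaves out the pairing of tissues. With the replicate number within each genotype as a block, 7 members were called, against 14.1% of all genes in this direction, Pcdha4 among them (limma adjusted p = 0.0139).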

How the results depend on the processing

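The count of members called in cerebellum for double mutants against controls (2) was 1 with no filter, rescaled to the median, with no intensity trend or with only the groups compared, and 0 to 5 when a library was left out. In cortex (13) it was 8 to 15 without a library. For Aptx mutants (1) it was 0 with only the groups compared, 2 with the replicate block and 1 to 2 without a library of another group. For Atm mutants (7) it was 2 with no filter, 4 with only the groups compared and 2 to 8 without a library of another group. The cerebellum to cortex counts stayed within 13 to 17 in double mutants (15) and 7 to 8 in controls (8) without a library, and double against single mutants stayed at 0. For the interaction (1) it was 2 under quantile normalization, 3 with the replicate block over all numbers, 7 with the replicate block within genotype and 0 to 2 without a library. Counts among columns with long decimals are not given, since a lone double mutant library per tissue has that column type. No share of all genes is given for the counts without a library. The block within genotype and the long-decimal fits were chosen after seeing the data. Within a tissue the replicate block pairs libraries that share only a number, and it changed no other count by over 1.5 times.

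Of 758 alternative values of named members, 718 kept direction and side of the threshold, 37 fell short of it and 3 turned: among columns with long decimals, Pcdha3 was at 0.17 and Pcdhb6 at -0.18 in cerebellum, and under quantile normalization Pcdhga9 was at -0.047 in cortex. The cause was not tested. Of the calls over all genes in double mutants against controls, 68.9% were higher in cerebellum and 62.6% in cortex, and these shares were 52.2% and 49.6% under quantile normalization and 49.4% and 52.9% when rescaled to the median. For Aptx mutants the share was 66.9%, against 50.6% and 44.9%, and for Atm mutants 67.6%, against 48.3% and 47.2%. For double against Aptx mutants it was 57.9%, against 40.0% and 45.5%, and for the interaction 56.9%, against 50.6% and 46.6%. The median of the beta genes stayed positive in each comparison of mutants with controls under both scalings. Reads behind Pcdhb1 limit its precision.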
